A study of Mus musculus with 3 samples.

Results

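The elastic fibre genes and *Mgp* were followed in single cells of the embryonic mouse thymus: *Eln*, *Fbln5*, *Fbln2*, *Fbn1*, *Fbn2*, *Mfap4*, *Emilin1*, *Ltbp4*, *Lox* and *Mgp*, which are 10 of the 27998 genes counted. They were selected on measured values, the mesenchymal UMI levels of 1 mutant library over those of the control in these same data, so the values of that contrast are a description here and nothing rests on them. The study sequenced 3 droplet libraries of thymic lobes from C57BL/6 embryos at E13 to E13.5, with 1 library per genotype. The control was wild type. The Tbx1neo2/neo2 genotype carries a neomycin cassette in an intron of both copies of *Tbx1*, in every cell, and serves as a mouse model of 22q11.2 deletion syndrome that leaves the other genes of the deletion intact. The Foxn11089/1089 genotype carries a small deletion in both copies of *Foxn1*, the transcription factor that thymic epithelium needs, and gives a small thymus by another route. The number of embryos behind each library is not given in the sources used here. With no second library of any genotype there is no test of a genotype difference: intervals below are exact 95% intervals for counting error only, and do not cover differences between embryos, dissections or libraries.

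Elastic fibres let arteries, lung and skin stretch and recoil. Fibrillins, encoded by *Fbn1* and *Fbn2*, assemble into microfibrils outside the cell, and tropoelastin, the product of *Eln*, is laid down on them and then cross-linked by the lysyl oxidase *Lox*. Fibulin 5 (*Fbln5*) and the latent TGF-β binding protein *Ltbp4* bring tropoelastin to the microfibrils, fibulin 2 (*Fbln2*) and *Mfap4* bind the growing fibre, and *Emilin1* sits at the interface of elastin and microfibril. Matrix Gla protein (*Mgp*) is made by vascular smooth muscle, cartilage cells and some epithelia, depends on vitamin K for its activity and keeps elastic tissue and cartilage from calcifying.

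The promoters of 3 of the genes are printed because they belong to a fibulin, an interface protein and a fibrillin whose levels went different ways in the comparisons below. They run from 250 bases before to 50 bases after the gene start in the RefSeq table for GRCm38.p6, and 5 of the 10 genes had an entry there (*Fbln5*, *Emilin1*, *Fbn1*, *Fbln2* and *Ltbp4*). The *Fbln5* window is chr12:101819070-101819369 on the minus strand, that of *Emilin1* is chr5:30913536-30913835 on the plus strand, and that of *Fbn1* is chr2:125506389-125506688 on the minus strand. Capitals mark the GC box.
Fbln5: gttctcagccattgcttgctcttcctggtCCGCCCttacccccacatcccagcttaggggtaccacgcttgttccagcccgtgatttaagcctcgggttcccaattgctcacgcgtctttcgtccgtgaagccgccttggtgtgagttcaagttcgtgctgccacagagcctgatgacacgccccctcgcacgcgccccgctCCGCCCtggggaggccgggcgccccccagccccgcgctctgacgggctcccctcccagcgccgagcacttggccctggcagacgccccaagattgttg
Emilin1: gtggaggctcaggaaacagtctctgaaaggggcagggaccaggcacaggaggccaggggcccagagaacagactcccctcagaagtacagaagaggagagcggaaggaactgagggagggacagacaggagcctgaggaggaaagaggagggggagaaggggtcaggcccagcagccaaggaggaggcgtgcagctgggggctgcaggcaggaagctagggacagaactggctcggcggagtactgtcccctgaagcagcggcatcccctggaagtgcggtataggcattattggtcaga
Fbn1: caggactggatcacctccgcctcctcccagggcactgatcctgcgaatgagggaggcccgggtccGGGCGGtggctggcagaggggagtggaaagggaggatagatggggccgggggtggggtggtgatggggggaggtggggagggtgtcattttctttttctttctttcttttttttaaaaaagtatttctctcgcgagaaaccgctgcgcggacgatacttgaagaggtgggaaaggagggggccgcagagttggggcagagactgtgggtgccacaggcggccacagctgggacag
Both strands were searched for TATAAA (the TATA box), GGGCGG (the GC box), TGANTCA (the AP-1 site) and the CArG box, which smooth muscle genes often carry. The GC box was found 2 times in the *Fbln5* window, 2 times in that of *Fbln2*, 3 times in that of *Ltbp4*, 1 time in that of *Fbn1* and 0 times in that of *Emilin1*. Over the whole table, 35.7% of 32851 promoters held a GC box, 13.6% TATAAA, 7.81% the AP-1 site and 1.63% a CArG box, and the last 3 of these motifs were in none of the 5 windows. The GC content of the 5 windows lay between 60.3% and 65.7%, against a median of 52.7% over all promoters.

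The libraries held 6410 (control), 5759 (labelled Tbx1neo2/neo2) and 12447 (Foxn11089/1089) barcodes, with a median of 12470, 19774 and 14027 UMIs, and 17 to 28 barcode sequences were shared between any pair of libraries. *Tbx1*, the gene hit in one mutant, gave 1.40 CPM (1.16 to 1.68) in the kept cells of the control, 4.79 CPM (4.43 to 5.17) in those of the library labelled Tbx1neo2/neo2 and 5.44 CPM (5.12 to 5.77) in those of the Foxn11089/1089 library. CPM is UMIs per 1000000 UMIs of the cells summed. *Tbx1* UMIs were therefore not lower in the library labelled Tbx1neo2/neo2, and UMIs counted at the end of a transcript are no check of an insertion in an intron. *Foxn1* gave 38.4, 34.8 and 76.7 CPM in the same order.

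Cells were assigned by their own UMIs, at least 2 of *Epcam* (epithelial), *Cdh5* (endothelial), both *Acta2* and *Rgs5* (mural) or *Pdgfra* without both mural genes (fibroblasts), and cells positive for more than 1 class (125, 192 and 391) were left out. The control had 676 fibroblasts, 23 mural, 48 endothelial and 1981 epithelial cells. The library labelled Tbx1neo2/neo2 had 1196, 302, 88 and 778, and the Foxn11089/1089 library had 2317, 50, 92 and 3861. The mural counts of the control rest on 23 cells and 289511 UMIs, against 10641962 UMIs in the library labelled Tbx1neo2/neo2, so the control mural values are the least precise of that class. The names held against other markers: the collagen gene *Col1a2* stood at 977, 2297 and 1053 CPM in the fibroblasts, and *Myh11*, a myosin of mature smooth muscle, at 38.0, 132 and 128 CPM in the mural cells. Mural cells also held 116 to 145 CPM of *Pdgfra*.

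Mural cells held far more elastin RNA than fibroblasts in every library. *Eln* (ENSMUSG00000029675, GRCm38 chromosome 5, 134702593 to 134747323) stood at 1527 CPM (1388 to 1676) in control mural cells, 3383 CPM (3349 to 3419) in those of the library labelled Tbx1neo2/neo2 and 831 CPM (774 to 891) in those of the Foxn11089/1089 library. In the fibroblasts beside them it stood at 45.5, 187 and 39.9 CPM, so that mural cells were 33.5-fold, 18.1-fold and 20.8-fold above fibroblasts of their own library, with log2 ratios of 5.07 (4.86 to 5.28), 4.18 (4.14 to 4.21) and 4.38 (4.25 to 4.51).
*Fbln5* (ENSMUSG00000021186, chromosome 12, 101746565 to 101819055) had the same placing, at 559.6, 1193 and 599 CPM in mural cells and 16.6, 98.7 and 21.3 CPM in fibroblasts. Its mural levels were 33.8-fold, 12.1-fold and 28.1-fold above the fibroblast levels. *Eln* and *Fbln5* were thus the members that most separated mural cells from fibroblasts in each of the 3 libraries.

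**Figure D1:**
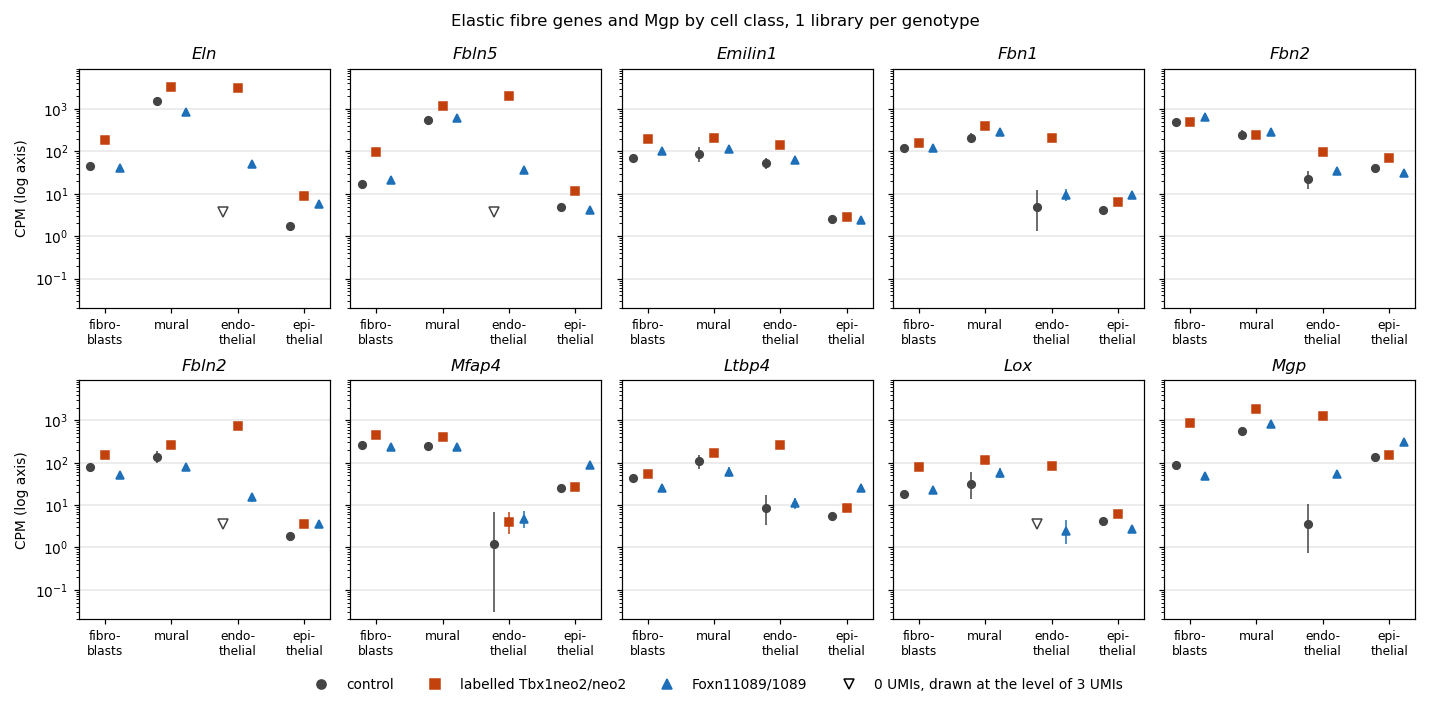
CPM on a log axis (vertical) of each of the 10 genes in 4 cell classes (horizontal), with 1 point per library and bars for the exact 95% counting interval. Open triangles stand for 0 UMIs and are drawn at the level of 3 UMIs; *Eln* and *Fbln5* are highest in mural cells of the control and the Foxn11089/1089 library, and control endothelial cells have 0 UMIs of *Eln*, *Fbln5*, *Fbln2* and *Lox*.

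The other members divided the 2 mesenchymal classes differently. *Mgp* (ENSMUSG00000030218, chromosome 6, 136872435 to 136875823) was 6.41-fold higher in mural cells than in fibroblasts in the control, 2.13-fold in the library labelled Tbx1neo2/neo2 and 16.1-fold in the Foxn11089/1089 library. The fibrillins went opposite ways. *Fbn1* (ENSMUSG00000027204, chromosome 2, 125300594 to 125507993) was higher in mural cells by 0.77, 1.35 and 1.22 on the log2 scale. *Fbn2* (ENSMUSG00000024598, chromosome 18), the fibrillin of embryonic tissues, lay on the side of the fibroblasts, and its mural over fibroblast log2 ratio was -1.03, -1.02 and -1.15. *Ltbp4* (ENSMUSG00000040488, chromosome 7, 27305136 to 27337692) was higher in mural cells by 1.30, 1.67 and 1.24 on the log2 scale. *Fbln2* (ENSMUSG00000064080, chromosome 6, 91212455 to 91272540) lay between 0.66 and 0.78 on the same scale, and *Lox* (ENSMUSG00000024529, chromosome 18) between 0.56 and 1.37. *Emilin1* (ENSMUSG00000029163, chromosome 5, 30913402 to 30921277) and *Mfap4* (ENSMUSG00000042436, chromosome 11, 61485431 to 61488900) were nearly level between the classes, at 0.07 to 0.30 and at -0.20 to -0.02. Within 1 library these values share their depth, and the placing of *Eln*, *Fbln5* and *Fbn2* was alike in all 3.

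In fibroblasts the 10 genes fell into a group that was far higher in the library labelled Tbx1neo2/neo2 and a group that was not. *Mgp* stood at 86.7 CPM in the control (79.9 to 93.9), 882 CPM in the library labelled Tbx1neo2/neo2 (872 to 893) and 49.7 CPM in the Foxn11089/1089 library (47.4 to 52.0). Its log2 ratio of the library labelled Tbx1neo2/neo2 over control was 3.35 (3.23 to 3.47), which is 10.2-fold. *Fbln5* followed at 2.58 (2.31 to 2.86), *Lox* at 2.14 (1.88 to 2.41), *Eln* at 2.04 (1.88 to 2.21) and *Emilin1* at 1.51 (1.38 to 1.65). *Lox*, the cross-linking enzyme, had 18.3, 80.7 and 22.4 CPM, and *Emilin1* had 70.0, 199 and 101 CPM. The next member below 2-fold was *Fbln2*, at 81.1, 155 and 50.5 CPM and a log2 ratio of 0.93 (0.81 to 1.06), so *Emilin1* and *Fbln2* lie on either side of the limit. *Mfap4* stood at 263, 453 and 241 CPM (0.79), *Ltbp4* at 43.5, 53.3 and 25.3 CPM (0.29), *Fbn1* at 121, 159 and 122 CPM (0.38) and *Fbn2* at 506, 503 and 652 CPM (-0.01). The fibrillins and *Ltbp4* were thus the least different between these libraries. In all, 5 of the 10 members were at least 2-fold higher, beside 17.2% of all 13291 genes with at least 30 UMIs, and the median log2 ratio was 1.22 for the members and 0.38 for all genes. These are the values that chose the members, and nothing is read from the count.

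In the Foxn11089/1089 library 0 of the 10 members were at least 2-fold higher in fibroblasts than in the control, beside 5.99% of all genes, and the median log2 ratio was -0.06 against 0.16 over all genes. Several were lower within that limit, with *Mgp* at -0.80 (-0.94 to -0.67), *Ltbp4* at -0.78 (-0.97 to -0.59) and *Fbln2* at -0.68 (-0.82 to -0.55). *Emilin1* (0.53, 0.39 to 0.67) and *Fbn2* (0.36, 0.31 to 0.42) lay above 0. This comparison shares its control cells with the one before. Red cell genes summed to 634, 221 and 3093 CPM in the fibroblasts of the control, the library labelled Tbx1neo2/neo2 and the Foxn11089/1089 library, and their part was not tested.

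*Mgp* was concentrated in part of the fibroblasts. Per 10000 UMIs of a cell, at least 10 were *Mgp* in 5 of 676 control fibroblasts, in 264 of 1196 of the library labelled Tbx1neo2/neo2 and in 3 of 2317 of the Foxn11089/1089 library. The tenth of fibroblasts with the highest levels held 62.6%, 60.8% and 69.5% of all *Mgp* UMIs. After thinning every cell to 3000 UMIs, which left out 2 to 9 fibroblasts per library, the share of fibroblasts with an *Mgp* UMI was 15.9% (13.2 to 18.9), 37.7% (34.9 to 40.5) and 10.6% (9.37 to 11.9). On full counts, at median depths of 9492, 24914 and 14479 UMIs, it was 32.0%, 65.6% and 29.3%. In red cells, which should lack the gene, the thinned share was 0.683%, 0.570% and 1.50% at median depths of 9453, 18920 and 12720 UMIs, so the fibroblast shares stand above free RNA. For *Eln* the thinned shares were 13.2%, 37.9% and 10.3% of fibroblasts, the full-count shares 30.8%, 88.2% and 40.1%, and the thinned red cell shares 0, 1.14% and 0.207%. *Fbn2* was seen in most fibroblasts of all 3 libraries, at 70.0%, 70.8% and 77.3% of thinned cells, with 1.14% to 1.81% of red cells.

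A thinned fibroblast held UMIs of a median of 2 of the 10 genes in the control, 4 in the library labelled Tbx1neo2/neo2 and 2 in the Foxn11089/1089 library, and 39.6%, 76.9% and 40.4% of fibroblasts held at least 3. The genes were only weakly tied to each other from cell to cell. Spearman correlations between pairs of members over thinned fibroblasts of 1 library ran from -0.11 to 0.23, with *Eln* and *Mgp* at 0.00, 0.23 and 0.00. These are sparse counts of cells that share a library, and values this small are no finding.

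The fibroblasts of the library labelled Tbx1neo2/neo2 also held more RNA of genes of cartilage and of more posterior mesenchyme, and *Mgp* moved with them. The summed level of 6 cartilage genes was 96.8, 377 and 129 CPM, with *Sox9*, the transcription factor of cartilage precursors, at 36.3, 117 and 42.4 CPM and *Col2a1*, the cartilage collagen, at 0.576, 33.8 and 1.03 CPM. Of the 6 genes 1 was at 0 in that library and in the Foxn11089/1089 library and 2 in the control. *Hoxa4*, *Hoxa5*, *Hoxb4*, *Hoxb5*, *Foxf1*, *Tbx4* and *Tbx5*, a list made after the values were seen, summed to 45.9, 286 and 62.1 CPM. Bone genes were higher by more: *Ibsp*, *Ifitm5*, *Sp7* and *Alpl*, also a list made after the values were seen, summed to 4.61, 601 and 4.94 CPM, of which *Ibsp*, bone sialoprotein, made 0, 524 and 1.08 CPM. Fibroblasts with 0 UMIs of the bone genes (645 control cells and 996 of the library labelled Tbx1neo2/neo2) still gave log2 ratios of 3.43 (3.31 to 3.56) for *Mgp*, 2.03 for *Eln*, 2.67 for *Fbln5*, 1.90 for *Lox* and 1.51 for *Emilin1*. In the 60 fibroblasts of that library with at least 2 bone UMIs *Lox* stood at 258 CPM, against 69.1 CPM in the rest, and *Mgp* at 835 against 885 CPM. Among fibroblasts with 0 UMIs of the cartilage genes (324 control cells and 82 of the library labelled Tbx1neo2/neo2) *Mgp* stood at 87.8 and 163 CPM, a log2 ratio of 0.89 (0.66 to 1.13) in place of 3.35. Among the 610 fibroblasts of that library with at least 5 cartilage UMIs *Mgp* stood at 1392 CPM, and in the 15 control and 290 Foxn11089/1089 fibroblasts past the same limit at 23.7 and 42.8 CPM. Among fibroblasts, cartilage UMIs therefore went with high *Mgp* in 1 of the 3 libraries. Among cells with none of the class markers, those with at least 5 cartilage UMIs held 397, 3823 and 864 CPM of *Mgp*. Those with fewer held 78.9, 307 and 85.2 CPM, with cells of the mesothelial gene *Upk3b* left out. Such cells, which held much *Mgp*, stayed in the first group, where *Upk3b* stood at 40.1, 55.8 and 152 CPM. The 2 groups are therefore not alike, and no link of cartilage UMIs and *Mgp* is read from them.

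The elastic fibre genes moved less with the cartilage and *Hox* lists. Without cartilage UMIs the log2 ratio of the library labelled Tbx1neo2/neo2 over control was 1.66 (1.29 to 2.03) for *Eln*, 2.16 (1.47 to 2.89) for *Fbln5*, 1.55 (1.30 to 1.80) for *Emilin1* and 1.50 (0.86 to 2.16) for *Lox*. In cells with 0 UMIs of the *Hox*, *Foxf1*, *Tbx4* and *Tbx5* list (516 and 239 cells) it was 1.88, 2.72, 1.56 and 1.68 for the same genes and 1.09 (0.94 to 1.24) for *Mgp*. With 0 UMIs of the cartilage and the *Hox* list (265 and 30 cells) *Eln* stayed at 1.94 (1.44 to 2.44) and *Emilin1* at 1.36 (1.01 to 1.71). There *Lox* was 0.51 (-0.88 to 1.76), *Mgp* 0.88 (0.57 to 1.19) and *Fbln5* 1.73 (0.52 to 2.93), and these values rest on 30 cells of that library. Of the 8 members that reached 30 UMIs in these cells 2 were at least 2-fold higher, beside 10.9% of 8026 genes. *Fbln5* and *Lox* were under that minimum, so the count is not set against the 5 of all fibroblasts. Choosing cells with 0 UMIs also favours shallow cells, and the part of these genes in the member values was not tested.

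**Figure D2:**
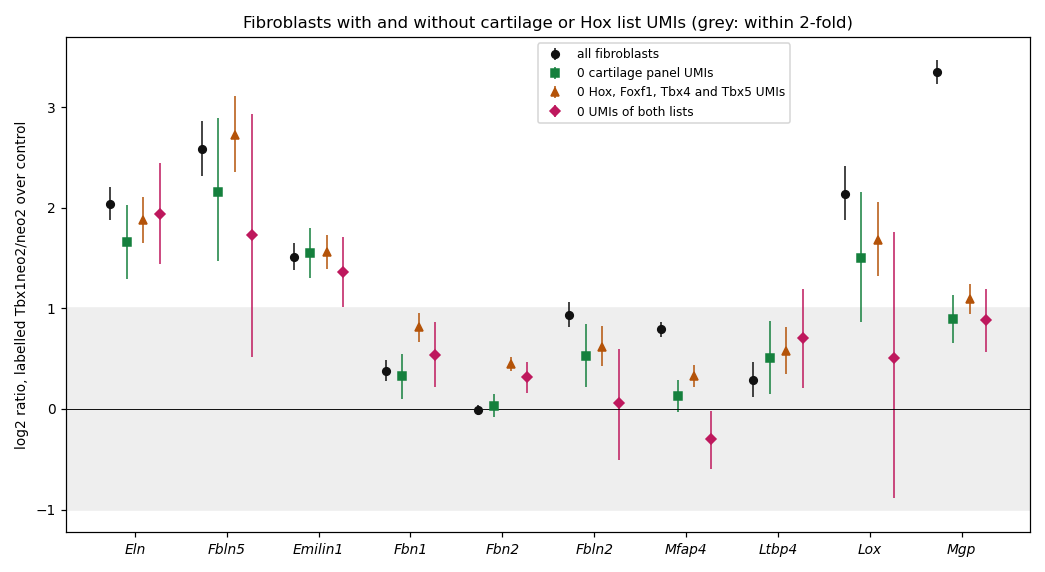
Log2 ratio of CPM, library labelled Tbx1neo2/neo2 over control (vertical), of each gene (horizontal) in all fibroblasts and in those with 0 UMIs of the cartilage list, of the *Hox*, *Foxf1*, *Tbx4* and *Tbx5* list, or of both, with exact 95% counting intervals. The value of *Mgp* goes from 3.35 to between 0.88 and 1.09, while that of *Eln* stays between 1.66 and 2.04.

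Fibroblasts were also split by 6 smooth muscle genes (*Acta2*, *Tagln*, *Myl9*, *Actg2*, *Myh11* and *Cnn1*) after thinning. *Fbln5* was higher in those with at least 1 such UMI, by 1.26, 0.55 and 0.86 on the log2 scale in the control, the library labelled Tbx1neo2/neo2 and the Foxn11089/1089 library. *Eln* was higher by 0.65 (0.32 to 0.98), 0.04 (-0.04 to 0.11) and 0.17 (0.02 to 0.33). For *Mgp* the difference was 0.42 in the control and 0.22 in the Foxn11089/1089 library and -1.0 in the library labelled Tbx1neo2/neo2, where fibroblasts without smooth muscle UMIs held 1086 CPM and those with them 544 CPM. *Mgp* thus lay on the side away from smooth muscle genes in that library.

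In mural cells 5 genes, the ones named first for fibroblasts, were at least 2-fold higher in the library labelled Tbx1neo2/neo2 than in the control, beside 19.6% of all genes. *Mgp* stood at 556 CPM in the control (474 to 649), 1876 CPM in the library labelled Tbx1neo2/neo2 (1851 to 1903) and 801 CPM in the Foxn11089/1089 library (746 to 860.4), a log2 ratio of 1.75 (1.53 to 1.99). *Lox* was at 1.94 (1.01 to 3.07, 9 control UMIs), *Emilin1* at 1.28 (0.71 to 1.91), *Eln* at 1.15 (1.01 to 1.29) and *Fbln5* at 1.09 (0.87 to 1.33). *Fbln2* (0.98) and *Fbn1* (0.96) lay just below the limit, and *Fbn2* stood at 249 and 248 CPM. The median log2 ratio was 1.04 for the members and 0.20 for all genes. The choice of members used this contrast as well. The count rests on the gate: it was 8 where a cell was mural with *Acta2* or *Rgs5* alone, and 2 with median-of-ratios scaling.

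In the Foxn11089/1089 library 0 of the 10 members were at least 2-fold higher in mural cells, beside 16.5% of all genes. *Eln* stood at -0.88 (-1.05 to -0.71), and the other members ran from -0.84 (*Ltbp4*) to 0.89 (*Lox*). With cells classed by whole marker panels in place of 1 or 2 genes 4 members passed the limit, beside 13.6% of all genes. The ratio of *Eln* then turned to 0.50 and that of *Fbln2* from -0.75 to 1.11. *Mgp* turned from 0.53 to -0.80 where a cell was mural with *Acta2* or *Rgs5* alone, so the directions of these 3 genes depend on the gate. The thinned share of mural cells with an *Eln* UMI was 11 of 22 (28.2% to 71.8%), 79.1% (74.0 to 83.6) and 55.1% (40.2 to 69.3) in the control, the library labelled Tbx1neo2/neo2 and the Foxn11089/1089 library, after 1 to 10 cells were left out. On full counts they were 60.9%, 92.4% and 76.0%, the median cell holding 12542, 33258 and 18506 UMIs.

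**Figure D3:**
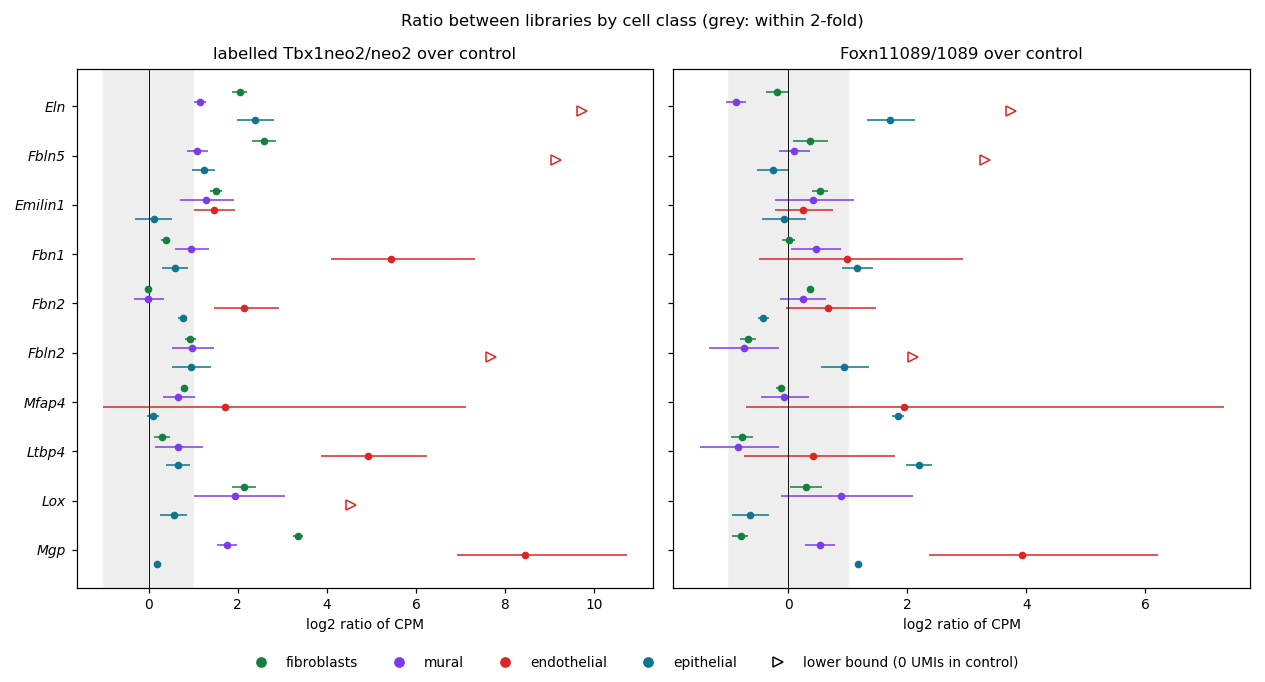
Log2 ratio of CPM (horizontal) of each gene (vertical) in 4 cell classes, for the library labelled Tbx1neo2/neo2 over control (left) and Foxn11089/1089 over control (right), with exact 95% counting intervals; grey marks ratios within 2-fold and open triangles are lower bounds against 0 control UMIs. The endothelial values of *Eln*, *Fbln5*, *Fbln2* and *Mgp* lie farthest to the right on the left side, and those of *Fbn2* and *Emilin1* are smaller.

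Except for *Emilin1* and the sparse *Mfap4*, the gap between the library labelled Tbx1neo2/neo2 and the control was widest in endothelial cells. *Eln* had 0 UMIs in the 48 control endothelial cells, 10060 UMIs in the 88 of the library labelled Tbx1neo2/neo2 (3069.7 CPM, 3010.0 to 3130.3) and 200 UMIs in the 92 of the Foxn11089/1089 library (49.2 CPM, 42.6 to 56.5). Against a floor of 3 UMIs over the control cells that is at least 842-fold and at least 13.5-fold higher. *Fbln5* stood at 0, 2076 and 36.2 CPM, at least 569-fold and at least 9.91-fold higher than the floor. *Fbln2* stood at 0, 754 and 15.5 CPM and *Lox* at 0, 85.4 and 2.46 CPM, of which the last rests on 10 UMIs.
*Mgp* had 3 control UMIs (3.65 CPM) and stood at 1288 and 55.3 CPM in the others, log2 ratios of 8.46 (6.92 to 10.74) and 3.92 (2.36 to 6.21). *Ltbp4* was at 8.51, 258 and 11.3 CPM, and *Fbn1* at 4.86, 212 and 9.59 CPM. *Emilin1*, which control endothelial cells did hold, stood at 52.3, 144 and 62.0 CPM, and *Fbn2* at 21.9, 97.0 and 34.9 CPM. *Mfap4* had 1, 13 and 19 UMIs, too few to read.
Of the 9 members with at least 30 UMIs over both libraries, 9 were at least 2-fold higher in the library labelled Tbx1neo2/neo2, beside 26.0% of all genes and an all-gene median log2 ratio of 0.43. In the Foxn11089/1089 library 4 of 8 were (*Eln*, *Fbln5*, *Fbln2* and *Mgp*), beside 13.8% of all genes. Where the gates were set on thinned cells 7 of 9 were, beside 13.5%. All of these members but *Emilin1*, with 43 control UMIs, reached the minimum through the mutant library in which they are higher, so nothing is read from either count.

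The *Eln* UMIs lay in the arterial part of the endothelium. Endothelial cells were split, after the values were seen, at 2 UMIs of *Gja4*, *Gja5* and *Bmx*, genes of arterial endothelium, in the cell thinned to 3000 UMIs. There were 9 arterial cells in the control, 52 in the library labelled Tbx1neo2/neo2 and 7 in the Foxn11089/1089 library, and 38, 35 and 85 others. At least 5 of 10000 UMIs were *Eln* in 0 of the 9 control arterial cells, which allows a share of up to 33.3%, in 46 of 52 of the library labelled Tbx1neo2/neo2 (88.5%, 76.6 to 95.6) and in 2 of 7 of the Foxn11089/1089 library (28.6%, 3.67 to 71.0). Among the others the counts were 0 of 38, 3 of 35 and 0 of 85. For *Mgp* they were 0 of 9, 47 of 52 and 2 of 7 arterial cells and 0 of 38, 2 of 35 and 0 of 85 others. The cells with many *Eln* UMIs were thus mostly arterial, and few arterial cells of the control and the Foxn11089/1089 library were sampled.

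In arterial cells *Eln* stood at 0, 8744 and 1382 CPM, *Fbln5* at 0, 5848 and 1058 CPM and *Mgp* at 0, 3662 and 1533 CPM. *Fbln2* stood at 0, 2084 and 374 CPM, *Ltbp4* at 0, 684 and 223 CPM, *Fbn1* at 0, 508 and 137 CPM and *Emilin1* at 57.1, 207 and 43.2 CPM. Of the 7 members just given all but *Emilin1* were at 0 in the control arterial cells. In the library labelled Tbx1neo2/neo2 the arterial *Eln* level was above the mural level of 3383 CPM. *Gja4* itself was at 1238, 1154 and 648 CPM in these cells, *Gja5* at 95.2, 306 and 173 CPM and *Bmx* at 0, 273 and 238 CPM, and *Vwf*, von Willebrand factor, at 19.0, 741 and 324 CPM. *Prox1*, a transcription factor of lymphatic endothelium, was at 0, 9.05 and 511 CPM, against 18.2, 101 and 3.31 CPM in the other endothelial cells. The arterial cells of the libraries therefore differed in more than the members, and *Prox1* goes against the name for the 7 cells of the Foxn11089/1089 library, which are called arterial only by the 3 genes of the split. Their median depths were 9894, 18874 and 11886 UMIs. Outside the arterial cells *Eln* was still at 0, 168 and 2.04 CPM, a log2 ratio of at least 5.32 for the library labelled Tbx1neo2/neo2, while 0 members were at least 2-fold higher in the Foxn11089/1089 library and *Mgp* there was at -0.46 (-2.35 to 2.01).

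Markers of mural cells and fibroblasts were low in those arterial cells. *Tagln*, a smooth muscle gene, stood at 0, 60.6 and 7.20 CPM, against 5.60, 0.461 and 1.78 CPM in the other endothelial cells, *Acta2* at 0, 31.7 and 7.20 CPM, *Rgs5* at 0 in all 3 libraries, *Pdgfra* at 0, 0.905 and 0 CPM and *Col1a2* at 0, 18.1 and 0 CPM. Over all endothelial cells the 12 mural genes summed to 55.9, 108 and 54.1 CPM, with 5, 1 and 4 of them at 0, and the 8 fibroblast genes to 30.4, 63.2 and 46.5 CPM, with 4, 0 and 0 at 0. Mural cells of the library labelled Tbx1neo2/neo2 held 6960.3 CPM of the same 12 genes. A list of 5 neural crest glia and neuron genes summed to 34.0, 452 and 44.5 CPM in endothelial cells, with 4, 2 and 3 of them at 0, and red cell genes, a list of 3, to 5439, 193 and 1010.3 CPM. The part of either list in the member values was not tested. The thinned share of endothelial cells with an *Eln* UMI was 0 of 47 (which allows up to 6.38%), 57.5% (46.4 to 68.0) and 2.17% (0.264 to 7.63), and on full counts 0, 73.9% and 9.78%, where the median cell held 17464, 22862 and 38001 UMIs. The share in the Foxn11089/1089 library rests on 2 cells and stands beside 0.207% of its red cells.

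**Figure D4:**
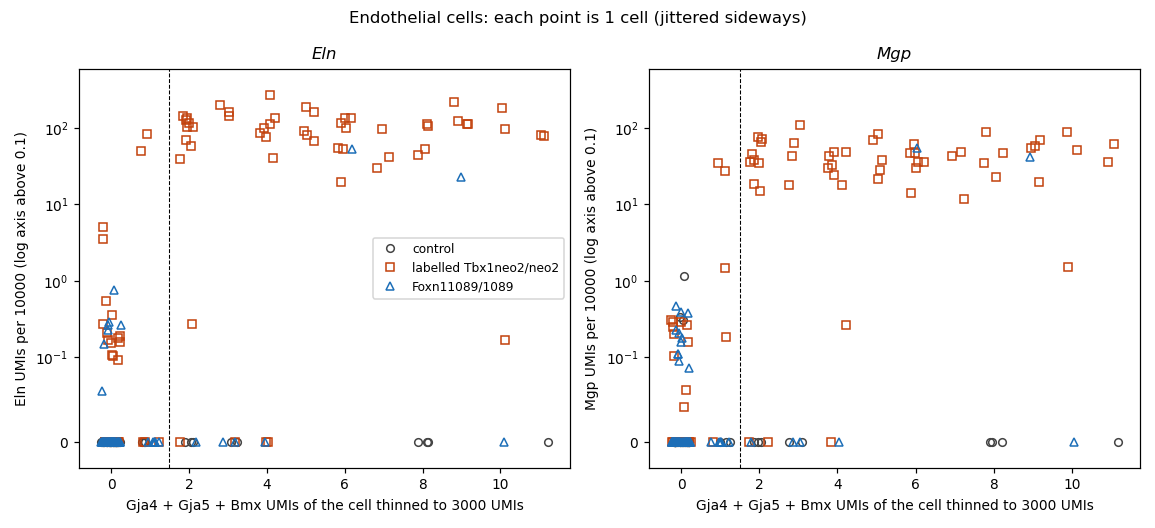
UMIs of *Eln* (left) and *Mgp* (right) per 10000 UMIs of a cell (vertical, log axis above 0.1) against the UMIs of 3 arterial genes in the cell thinned to 3000 UMIs (horizontal), 1 point per endothelial cell; the dashed line marks the split at 2 UMIs. Cells of the library labelled Tbx1neo2/neo2 right of the line sit mostly above 10 for both genes, and all control cells lie at 0 for *Eln*.

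Epithelial cells held *Mgp* in all 3 libraries. *Mgp* stood at 138 CPM in the control (134 to 142), 156 CPM in the library labelled Tbx1neo2/neo2 (152 to 160.1) and 310.3 CPM in the Foxn11089/1089 library (307 to 314), against 1.21, 10.9 and 8.64 CPM in red cells. The epithelium held 61.7% of all *Mgp* UMIs of kept cells in the control and 73.4% in the Foxn11089/1089 library, but 7.43% in the library labelled Tbx1neo2/neo2, where fibroblasts held 33.0% and mural cells 23.4%. The thinned share of epithelial cells with an *Mgp* UMI was 30.9% (28.8 to 32.9), 29.6% (26.4 to 33.0) and 53.7% (52.1 to 55.3), after 5 to 47 cells were left out, and on full counts 70.7%, 80.7% and 84.8%, at median depths of 16621, 45704 and 20522 UMIs. *Mgp* in the epithelium was thus close between the control and the library labelled Tbx1neo2/neo2 and higher in the Foxn11089/1089 library. Thyroid genes, a list of 4, summed to 2.38, 218 and 3.56 CPM in this class.

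Against the control, 5 of the 10 members were at least 2-fold higher in the epithelium of the Foxn11089/1089 library, beside 16.5% of all genes. *Ltbp4* stood at 5.49, 8.71 and 25.2 CPM over the 3 libraries, a log2 ratio of 2.20 (1.98 to 2.42) for the Foxn11089/1089 library, and *Mfap4* at 25.2, 27.0 and 90.5 CPM (1.85, 1.74 to 1.95). *Eln* stood at 1.70, 8.96 and 5.59 CPM (1.71, 1.32 to 2.13), *Fbn1* at 4.17, 6.27 and 9.28 CPM (1.15, 0.90 to 1.42) and *Mgp* at 1.17 (1.13 to 1.22). *Lox* (-0.64) and *Fbn2* (-0.42) lay below 0. The median-of-ratios scaling gave 3 members in place of 5, beside 11.2% of all genes. In the library labelled Tbx1neo2/neo2 2 of the 10 passed, *Eln* (2.39, 1.99 to 2.82) and *Fbln5* (1.24, 0.98 to 1.50), beside 16.5% of all genes. After the red cell level of each library was subtracted *Eln* alone passed, beside 16.6%. Red cells of that library held 5.38 CPM of *Eln*, against 0.302 CPM in the control, and 2.97 CPM of *Fbln5*, against 0.

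Subsets of the epithelium, chosen after the values were seen, carried different members. Cells with at least 2 UMIs of *Gcm2*, the transcription factor of parathyroid cells, numbered 15 in the control, 0 in the library labelled Tbx1neo2/neo2 and 265 in the Foxn11089/1089 library. *Mfap4* stood at 305 CPM (control) and 408 CPM (Foxn11089/1089) in them, against 22.8 and 56.4 CPM in cells without *Gcm2* UMIs, higher by 3.74 (3.37 to 4.10) and 2.85 (2.79 to 2.92) on the log2 scale. *Mgp* was the reverse, at 17.4 and 19.0 CPM in *Gcm2* cells against 139 and 343 CPM, log2 ratios of -2.99 (-4.87 to -1.64) and -4.17 (-4.40 to -3.95).
Cells with at least 2 UMIs of *Nkx2-1*, a transcription factor of thyroid and lung, numbered 5, 159 and 9. In the library labelled Tbx1neo2/neo2 they held 24.7 CPM of *Mgp*, against 197 CPM in cells without it (-2.99, -3.19 to -2.80), and 18.5 against 5.83 CPM of *Ltbp4*. With *Gcm2* and *Nkx2-1* cells left out, the log2 ratio of the Foxn11089/1089 library over control was 1.31 (1.20 to 1.42) for *Mfap4*, 1.31 (1.26 to 1.35) for *Mgp* and 2.32 (2.10 to 2.54) for *Ltbp4*. The *Mgp* of the epithelium thus lay mostly outside both subsets.

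*Lox* followed *Krt5* and *Krt17*, keratins of medullary and basal epithelium. In cells with at least 2 UMIs of these (616, 333 and 813 cells) *Lox* stood at 12.1, 10.9 and 6.84 CPM, and in cells with 0 (1061, 318 and 2613) at 0.867, 2.30 and 1.20 CPM. The log2 ratios within the libraries were 3.81 (3.05 to 4.66), 2.25 (1.72 to 2.82) and 2.52 (2.10 to 2.95), all the same way. *Mgp* was at 88.2, 157 and 211 CPM in the keratin cells and at 158, 160.1 and 344 CPM in the others.

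**Figure D5:**
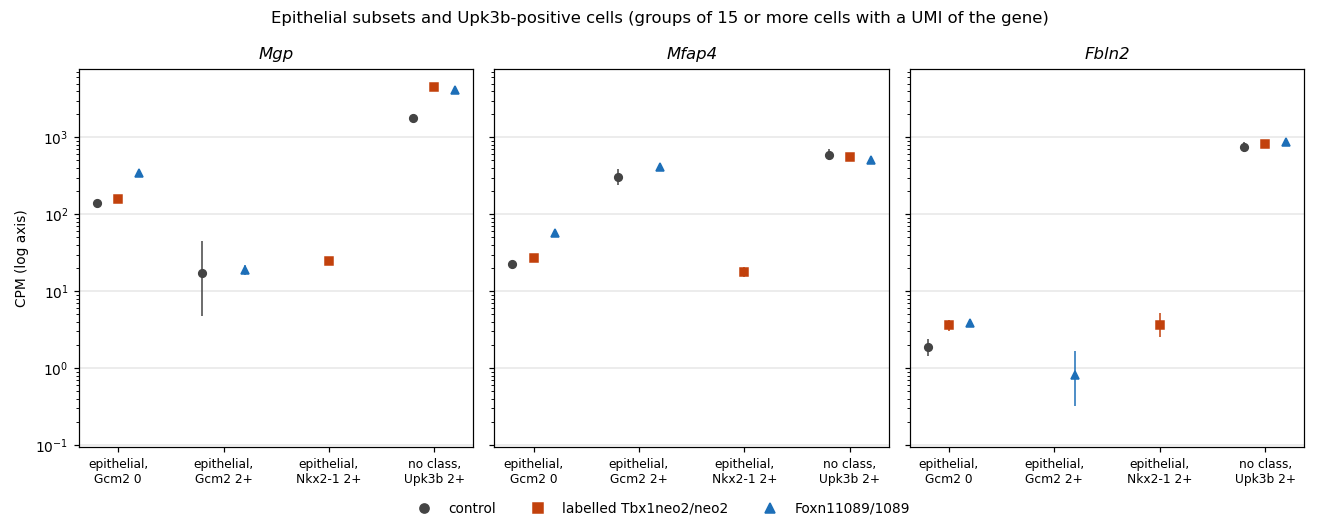
CPM on a log axis (vertical) of *Mgp*, *Mfap4* and *Fbln2* in epithelial cells with 0 *Gcm2* UMIs, with at least 2 *Gcm2* UMIs, with at least 2 *Nkx2-1* UMIs, and in cells of no class with at least 2 *Upk3b* UMIs (horizontal), 1 point per library with exact 95% counting intervals, for groups of at least 15 cells. *Mgp* is low and *Mfap4* high in *Gcm2* cells, and all 3 genes are high in *Upk3b* cells.

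Other genes of the elastic fibre were read from a list of 22, which holds further fibulins, microfibril proteins, latent TGF-β binding proteins and lysyl oxidases. In fibroblasts 8 of the 20 with at least 30 UMIs were at least 2-fold higher in the library labelled Tbx1neo2/neo2 and 0 lower, with a median log2 ratio of 0.61, beside 17.2% of all genes higher and 3.63% lower. *Ltbp3* went from 16.0 to 51.1 CPM (1.68, 1.40 to 1.97), *Ltbp1* from 24.3 to 74.9 CPM (1.62, 1.40 to 1.85) and the lysyl oxidase *Loxl2* from 35.3 to 78.9 CPM (1.16, 0.97 to 1.36). The microfibril gene *Mfap2* was at 821 and 621 CPM and *Fbln1* at 303 and 318 CPM. These 2 latent TGF-β binding proteins were thus higher, and *Mfap2* and *Fbln1* were not. *Emilin3*, also among the 8, had 12 control UMIs and reached the minimum only through the library labelled Tbx1neo2/neo2. In the Foxn11089/1089 library 0 of 19 were higher and 2 lower in fibroblasts (median -0.11), beside 5.99% and 4.58%. The shares of all genes at least 2-fold higher were 19.6% in mural, 26.0% in endothelial and 16.5% in epithelial cells of the library labelled Tbx1neo2/neo2, and 16.5%, 13.8% and 16.5% in those of the Foxn11089/1089 library, and they are the background of the list counts that follow. The shares lower were 9.33%, 4.15% and 5.13%, and 3.22%, 4.24% and 8.52%.
In mural cells 6 of 15 were higher in the library labelled Tbx1neo2/neo2 (median 0.64) and 2 of 10 in the Foxn11089/1089 library (0.46). The first count includes *Mfap3* (2 control UMIs) and *Efemp1* (8), and the second *Efemp1*. These reached the minimum only through the mutant library, so nothing is read from either mural count. In endothelial cells 7 of 11 (1.59) were higher in the library labelled Tbx1neo2/neo2 and 0 of 8 (0.35) in the Foxn11089/1089 library. The 7 included *Mfap3* (12 control UMIs), *Ltbp3* (1) and *Efemp1* (0), which reached the minimum only through the library labelled Tbx1neo2/neo2. Nothing is read from that endothelial count. In the epithelium 5 of 16 were higher and 2 lower in the library labelled Tbx1neo2/neo2 (0.38), and 6 of 17 higher and 3 lower in the Foxn11089/1089 library (0.83). The epithelial genes higher in the Foxn11089/1089 library included *Efemp1*, a fibulin, from 2.79 to 24.0 CPM (3.10, 2.81 to 3.42), *Ltbp1* from 4.47 to 29.1 CPM (2.70, 2.47 to 2.95) and *Mfap2* from 230.1 to 640.2 CPM (1.48, 1.44 to 1.51). *Clu*, the chaperone clusterin, was lower, at 368, 93.2 and 103 CPM.

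Genes that act with *Mgp* in vitamin K use and mineralization formed a list of 11, and 3 of 10 with enough UMIs were higher in fibroblasts of the library labelled Tbx1neo2/neo2 (median 0.34). *Gas6*, another Gla protein, stood at 2.45 and 17.3 CPM (2.82, 2.13 to 3.61) and *Alpl*, the alkaline phosphatase of mineralizing tissue, at 10 and 638 UMIs (3.80, 2.91 to 4.86). The third was *Spp1*, and all 3 had at most 17 control UMIs (*Gas6*). They reached the minimum only through the library in which they are higher, so nothing is read from that count. In the Foxn11089/1089 library 1 of 10 was higher in fibroblasts (*Spp1*, 2 control UMIs) and 1 lower (-0.28). In mural cells 1 of 8 was higher (*Enpp1*, 1 control UMI) and 1 lower in the library labelled Tbx1neo2/neo2 (0.08) and 0 of 3 in the Foxn11089/1089 library (0.02). These single higher genes reached the minimum in the same way. In endothelial cells 5 of 7 (2.05) and 0 of 4 (0.13) were higher, with *Bmp4* at 0 and 115 CPM. These 5 had at most 14 UMIs in the control (*Vkorc1l1*) and reached the minimum only through the library in which they are higher. Nothing is read from that count. In the epithelium 1 of 9 was higher and 1 lower in the library labelled Tbx1neo2/neo2 (-0.02), and 3 of 10 were higher in the Foxn11089/1089 library (0.60), led by *Spp1*, osteopontin, at 15.2, 0.222 and 332 CPM. *Enpp1*, another of the 3, had 5 control UMIs and reached the minimum only through the Foxn11089/1089 library.
Of 7 elastin-degrading enzymes and their inhibitors, 3 of 6 were higher in fibroblasts of the library labelled Tbx1neo2/neo2 (0.62), among them *Mmp2* at 67.7 and 148 CPM and *Mmp14*, which activates it, at 82.0 and 171 CPM. The third, *Mmp9*, had 4 control UMIs and reached the minimum only through that library. The counts in that library were 2 of 5 in mural (0.71, beside 19.6% of all genes), 4 of 5 in endothelial (1.76, 26.0%) and 1 of 6 in epithelial cells (0.46, 16.5%), of which the last is near the background. *Mmp2* and *Timp2*, with 15 endothelial UMIs each in the control, reached the minimum only through that library, so nothing is read from the endothelial count. The 2 mural genes, *Mmp2* (9 control UMIs) and *Mmp14* (18), also did, and nothing is read from the mural count. In the Foxn11089/1089 library the counts were 1 of 6 in fibroblasts (0.28), 2 of 5 in mural (1.0), 1 of 5 in endothelial (0.28) and 2 of 6 in epithelial cells, with 1 lower (0.25). Its 2 mural genes, *Mmp14* (18 control UMIs) and *Timp3* (8), reached the minimum only through that library, so nothing is read from its mural count. The all-gene medians for these comparisons were 0.38, 0.20, 0.43 and 0.39 in the library labelled Tbx1neo2/neo2 and 0.16, 0.24, 0.27 and 0.26 in the Foxn11089/1089 library, for fibroblasts, mural, endothelial and epithelial cells.

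Over 18 sums (6 classes by 3 libraries) the pattern of *Eln*, as log2(CPM + 10), was most like that of *Fbln5* among 13536 genes, with a Pearson r of 0.992. *Rusc2* (0.952), *Hey2* (0.943), *Ltbp4* (0.94) and *Spon1* (0.936) came next, and *Rusc2* is carried by levels of at most 10.4 CPM in the mural, endothelial and fibroblast sums. For *Mgp* the nearest genes were *Ltbp3* (0.949), *Foxc1* (0.924), *Phka1* (0.923), *Fn1* (0.919) and *Hif3a* (0.915), while *Eln* ranked 90 (0.852). Sums of 1 library share its depth and its free RNA, so these values describe the 18 sums and carry no test.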

How the data were processed

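UMI counts per gene and barcode were deposited by the authors as 1 matrix per library, made with Cell Ranger 3.0.0 on mm10 (the submitters' processing notes also name Seurat). The counts were not normalized. Barcodes with at least 200 genes, under 20% mitochondrial UMIs and at least 2000 UMIs were kept, and cells were classed by their own marker UMIs as given above. UMIs were summed per class and library and scaled to CPM. Intervals are exact: Poisson for levels, binomial for shares (Clopper-Pearson) and conditional binomial for ratios. The background of each comparison was all genes that reached 30 UMIs in a class, both libraries added. Lists had the same minimum. Likely doublets, by Scrublet score in scanpy 1.11.5, stayed in and were left out in an alternative. The work ran in Python 3.11.15 with scipy 1.17.1 for the intervals, matplotlib 3.10.9 for the plots and numpy 2.4.6, anndata 0.12.19 and pandas 2.3.3 otherwise, and the ratio step was tested on simulated data. The members and the lists were chosen with earlier results of these data known. Named genes were the 10 members, the 3 lists, and for *Eln* and *Mgp* the 5 genes of most like pattern among those with at least 300 UMIs. Markers named besides these were named after their values were seen. *Ltbp4* labels 2 features, and ENSMUSG00000108715 had 0 UMIs, so ENSMUSG00000040488 was used. No gene coordinates but those of GRCm38 were used.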

Additional observations from a re-analysis of the deposited data

Results flagged for a closer look

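Several members went one way in the epithelium or endothelium of the Foxn11089/1089 library and the other way in its mesenchyme, relative to the control. With 1 library per genotype none of these differences was tested. For *Eln* the epithelial log2 ratio was 1.71 and the fibroblast ratio -0.19, a difference of 1.90, and against the mural ratio of -0.88 the difference was 2.59. The direction of both lower values depends on the cells taken: the mural ratio was 0.50 with classes from marker panels, and the fibroblast ratio was 0.25 without cartilage UMIs and 0.35 without cartilage and *Hox* list UMIs. For *Mfap4* the difference between epithelium (1.85) and fibroblasts (-0.13, and 0.02 without cartilage UMIs) was 1.98. For *Ltbp4* the epithelium (2.20) differed by 2.98 from fibroblasts (-0.78) and by 3.04 from mural cells (-0.84). For *Mgp* the epithelium (1.17) differed by 1.97 and the endothelium (3.92) by 4.72 from fibroblasts (-0.80). The endothelial ratio of *Mgp* rests on 3 control UMIs. Of the 92 endothelial cells of the Foxn11089/1089 library, 2 held at least 5 *Mgp* UMIs per 10000. Without arterial cells this endothelial ratio was -0.46, so its direction also depends on the cells taken.

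Cells with none of the class markers (1507, 778 and 1330 in the control, the library labelled Tbx1neo2/neo2 and the Foxn11089/1089 library) entered none of the class comparisons. Only their *Mgp* by cartilage UMIs was given above. In these cells of the library labelled Tbx1neo2/neo2 some members were at least 4-fold above the control. *Mgp* stood at 1804 CPM against 101 CPM in the control, *Eln* at 211 against 19.3 CPM, *Fbln2* at 141 against 34.3 CPM, *Fbln5* at 94.7 against 7.53 CPM and *Lox* at 44.3 against 5.76 CPM. Of the *Mgp* UMIs of these cells in that library 79.9% lay in 213 cells with at least 5 UMIs of the cartilage genes, where *Mgp* stood at 3823 CPM and *Col2a1* at 454 CPM. The 25 control and 38 Foxn11089/1089 cells past the same limit held 397 and 864 CPM of *Mgp*. Cells with *Upk3b* UMIs were not left out of these cartilage groups.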

How the results depend on the processing

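The number of members at least 2-fold higher was recomputed under 14 alternatives and 6 more chosen after seeing the data. Of 112 such counts under the 14, 100 stayed within 1.5 times. In mural cells of the library labelled Tbx1neo2/neo2 the count of 5 became 8 with a marker positive from 1 UMI, beside 21.1% of all genes. It became 8 with *Acta2* or *Rgs5* alone (22.1%), 8 with classes from marker panels (23.9%) and 2 with median-of-ratios size factors (12.5%). In mural cells of the Foxn11089/1089 library the count of 0 became 1 with markers positive from 3 UMIs (18.7% of all genes), 1 with *Acta2* or *Rgs5* alone (9.69%) and 4 with marker panels (13.6%). It became 2, of 8 members with enough UMIs, with mural cells lacking *Pdgfra* UMIs (11.1%). In endothelial cells of the Foxn11089/1089 library 4 of 8 became 7 of 9 with gates on thinned cells, beside 13.5% of all genes. Without arterial cells it was 0 of the 2 members with enough UMIs, beside 14.1%, and the log2 ratio of *Mgp* reversed to -0.46. In the epithelium 2 (library labelled Tbx1neo2/neo2) became 1 with median-of-ratios factors (6.91% of all genes) and 1 with red cell CPM subtracted (16.6%). The 5 (Foxn11089/1089) became 3 with median-of-ratios factors (11.2%). In fibroblasts of the library labelled Tbx1neo2/neo2 the count without cartilage and *Hox* list UMIs was 2 of 8, beside 10.9% of all genes. *Fbln5* and *Lox* were under the minimum there, so it is not set against the 5 of 10. The 0 (Foxn11089/1089) became 1 without cartilage UMIs (6.57%) and 1 without both (7.01%). Of the 22 other elastic fibre genes, 2 higher in mural cells of the Foxn11089/1089 library became 1 at a minimum of 100 UMIs, 0 in its endothelial cells became 2 at 1 UMI, and 5 in the epithelium of the library labelled Tbx1neo2/neo2 became 8 at 1 UMI. The cause of these changes was not tested. Over the 14 alternatives the fibroblast log2 ratio of the library labelled Tbx1neo2/neo2 over control ran from 2.98 to 4.11 for *Mgp*, 1.67 to 2.21 for *Eln* and 2.20 to 2.66 for *Fbln5*. Of 1106 ratios of single members 166 moved beyond their counting interval. In 44 of the 1106, over 18 ratios, the sign differed from the reported one, and each of these ratios was within 2-fold as reported. Beside the mural ones given above they include *Fbn2* in mural cells of the library labelled Tbx1neo2/neo2, from -0.01 to 1.13 with markers positive from 3 UMIs. No ratio past 2-fold as reported changed sign under the 14. Of 48 shares of cells 33 moved, where each cell kept more UMIs. No paired analysis was possible because each genotype has 1 library.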

Other observations

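Cells with RNA of a mesothelial gene held much *Mgp* in all 3 libraries. Among the cells of no class, those with at least 2 UMIs of *Upk3b*, a gene of mesothelium picked after the values were seen, numbered 19 in the control, 30 in the library labelled Tbx1neo2/neo2 and 50 in the Foxn11089/1089 library. *Mgp* stood at 1784 CPM (1617 to 1963), 4533 CPM (4398 to 4672) and 4057 CPM (3925 to 4191) in them. *Fbln2* stood at 747, 828 and 862 CPM and *Mfap4* at 597, 547 and 503 CPM, close to level over the libraries, and *Wt1*, a transcription factor of mesothelium, at 196, 287 and 312 CPM. *Eln* was at 141, 82.2 and 63.1 CPM. These cells held 20.9%, 18.3% and 75.3% of the *Mgp* UMIs of the cells of no class. Cells of no class with neither *Upk3b* nor cartilage UMIs past the limits stood at 78.9, 307 and 85.2 CPM of *Mgp*.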
